A study of Homo sapiens with 6 samples.

Results

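The SOX9 locus on the long arm of chromosome 17 was examined in gene counts from MB157 cells, an established human breast cancer line of the triple-negative type. The genes examined were SOX9 and 6 noncoding genes around it: SOX9-AS1, LINC01152, ENSG00000267893, LINC02097, LINC00511 and ENSG00000263680. They are 7 of the 57209 gene rows of the count tables, and all lie, at least in part, within 500 kb of SOX9 on GRCh37. They were selected with the counts of the same comparison in view, so for the noncoding genes the differences between groups are descriptions and carry no test. SOX9 was chosen by the study as the target of the guide, and its difference was tested.

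Both groups were MB157-Cas9 cells, named in the titles for the nuclease, kept in puromycin. One group received a control sgRNA and the other an sgRNA against SOX9. Cells were taken 4 days later, after sorting for the top 50% of sgRNA-expressing cells, and total RNA was made into libraries with a Pico input kit that keeps strand. The comparison addressed which genes SOX9 controls in triple-negative breast cancer. Each group had 3 libraries, which the labels call technical replicates, so p-values measure only the spread between libraries of 1 experiment. The titles name Cas9, whereas the series text speaks of stable SOX9 expression, so a SOX9 transgene in both groups cannot be told apart from the endogenous gene. In bulk RNA, fewer cells with a transcript and less of it per cell cannot be told apart.

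SOX9 encodes an HMG-box transcription factor that directs cartilage, testis and several epithelia, and in the mammary gland it is linked to progenitor cells. Its gene stands in a large gene desert, where distant enhancers and long noncoding RNAs are spread on both sides. Long noncoding RNAs are transcripts without a known protein product. LINC00511 has been studied as a noncoding RNA abundant in breast tumours, and SOX9-AS1 is annotated antisense to SOX9.

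Among these genes, the rows of LINC01152 and ENSG00000267893 differed most between the groups. These rows start 90.7 and 81.0 kb before SOX9 and held 378 and 523 control counts against 21 and 23 with the SOX9 sgRNA. LINC02097, between them and SOX9, held 83 against 198. ENSG00000263680, 304.9 kb beyond the SOX9 start, held 344 against 174. SOX9 itself held 134 against 136.

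**Figure D1:**
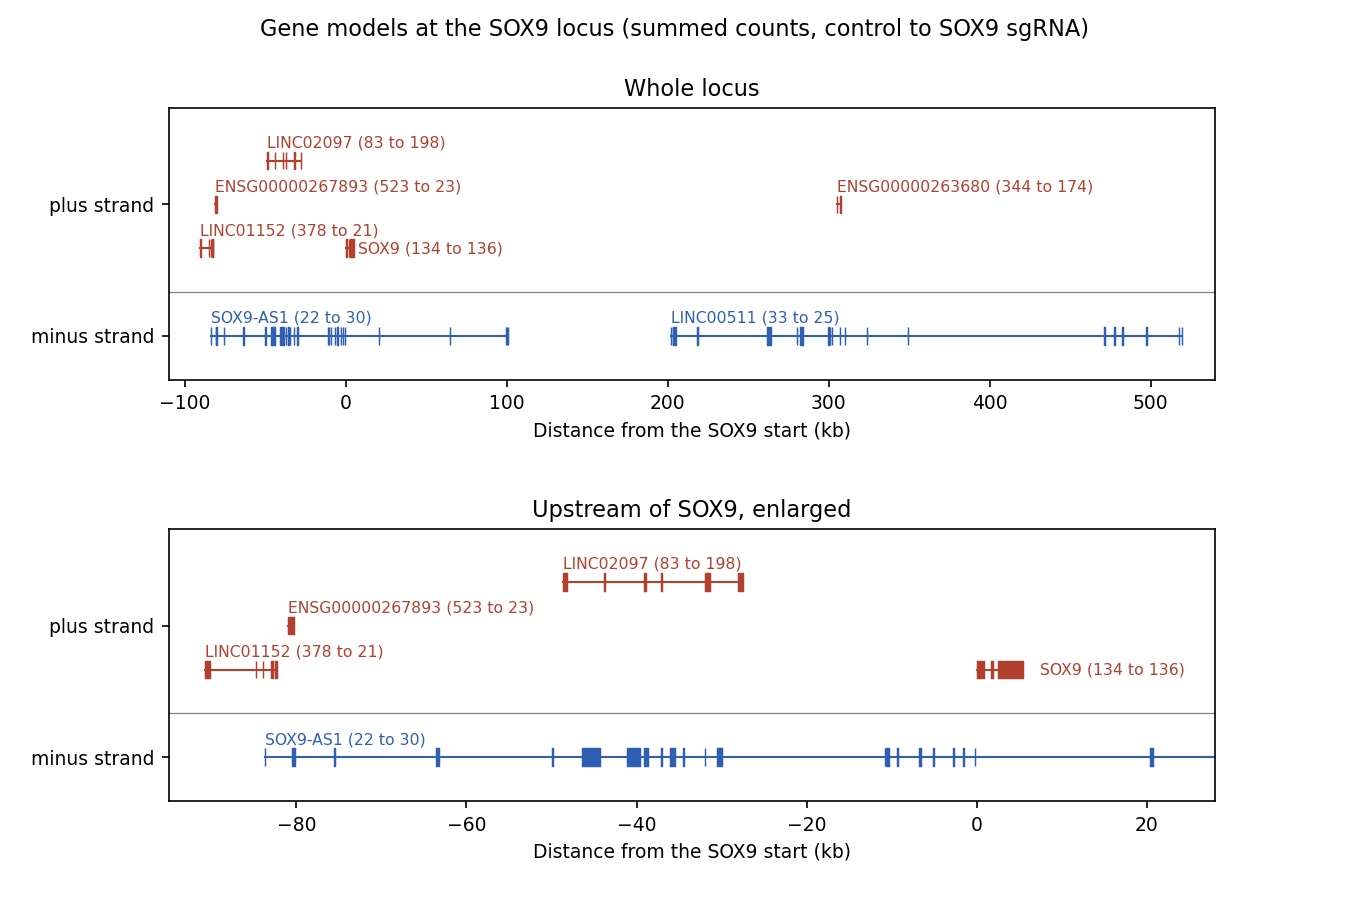
Gene models at the SOX9 locus by distance from the SOX9 start in kb, with boxes for exons (drawn at least a hairline wide) and the summed counts of 3 control and 3 SOX9 sgRNA libraries in brackets. The plus-strand rows upstream of SOX9 went from 378 to 21, from 523 to 23 and from 83 to 198 counts, while SOX9 held 134 and 136.

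The 5 genes on the plus strand are SOX9, LINC01152, ENSG00000267893, LINC02097 and ENSG00000263680, and the 2 on the minus strand are SOX9-AS1 and LINC00511. Exons of 3 plus-strand genes lie opposite exons of a minus-strand gene. ENSG00000267893 lies opposite SOX9-AS1 over 152 bp, LINC02097 opposite SOX9-AS1 over 195 bp and ENSG00000263680 opposite LINC00511 over 35 bp. SOX9 and LINC01152 have no exon opposite any gene. SOX9 lies wholly inside the span of SOX9-AS1, in one of its introns, and the nearest SOX9-AS1 exon ends 226 bp before SOX9 begins. The span of LINC01152 overlaps that of SOX9-AS1 by 1435 bp without a shared exon base.

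The stretches below show where 2 strands share exon sequence, since a fragment from there is assigned to one row or the other by strand alone. Each is written 5′ to 3′ on the strand of the named gene, from GENCODE release 29 transcripts. Capitals mark bases that lie within an exon of the gene on the other strand. The first is the third exon of LINC02097, bases 608 to 792 of its transcript of 2063 bases, of which 105 lie opposite SOX9-AS1. The second is bases 195 to 329 of the 833 bases of ENSG00000263680, centred on the 35 bases that lie opposite LINC00511. Their reverse complement is found in 39 of 106 annotated LINC00511 transcripts. The third is a whole SOX9-AS1 exon of 67 bases, chr17:70036657-70036723 on GRCh37, minus strand, which lies inside the single exon of ENSG00000267893.
LINC02097: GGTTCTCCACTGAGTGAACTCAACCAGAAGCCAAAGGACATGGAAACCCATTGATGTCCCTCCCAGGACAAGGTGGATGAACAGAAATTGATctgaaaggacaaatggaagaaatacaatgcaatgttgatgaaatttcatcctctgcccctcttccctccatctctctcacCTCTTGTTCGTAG
ENSG00000263680: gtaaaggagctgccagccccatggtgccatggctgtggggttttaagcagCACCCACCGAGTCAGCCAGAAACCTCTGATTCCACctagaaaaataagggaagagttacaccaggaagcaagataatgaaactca
SOX9-AS1: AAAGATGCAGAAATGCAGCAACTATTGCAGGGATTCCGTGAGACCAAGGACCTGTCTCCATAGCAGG

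SOX9 (ENSG00000125398, chromosome 17, 70117161 to 70122561, plus strand, 3935 bp of exon in 3 exons) held 38, 52 and 44 counts in control libraries 1 to 3 and 37, 39 and 60 in SOX9 sgRNA libraries 1 to 3. The groups overlapped. CPM is each count as a rate within the library's total over the genes tested, scaled by TMM factors. The SOX9 level was 60.0 ± 8.15 CPM in controls and 51.2 ± 6.94 CPM with the SOX9 sgRNA (SD, n = 3 each). The log2 fold change, SOX9 sgRNA over control, was -0.22 (SE of 0.26, edgeR quasi-likelihood test, Benjamini-Hochberg adjusted p = 0.70). Its 95% interval ran from 0.60-fold to 1.23-fold. A fall of this row to under 0.60 of its control level lies outside it, and a smaller fall does not. A guide that shifts the reading frame can leave the transcript in place. Which strand the SOX9 row counted was not tested either, so its values are those of a row and not of SOX9 transcript. For both reasons the SOX9 row was no check of the labels.

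LINC01152 (ENSG00000256124, 70026432 to 70034889, plus strand, 5 exons, 1221 bp), annotated as a long intergenic noncoding RNA gene, lies upstream of SOX9. It was read 121, 146 and 111 times in the controls. With the SOX9 sgRNA its counts were 8, 8 and 5. Every SOX9 sgRNA library was far below every control library. Its level went from 169 ± 14.4 to 8.30 ± 3.00 CPM (SD, n = 3 each), with a log2 fold change of -4.37 (SE 0.29). The control level was 21.2 times the level with the SOX9 sgRNA (exact 95% counting interval 13.7 to 34.6). This was the 7th lowest fold change of the 7959 genes tested.

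ENSG00000267893 (70036164 to 70036872, plus strand, a single exon of 709 bp) begins just beyond the end of LINC01152. It held 177, 168 and 178 counts in the controls and 11, 4 and 8 with the SOX9 sgRNA. Both groups stood apart, as for LINC01152. The level went from 235 ± 21.3 to 8.74 ± 4.11 CPM (SD, n = 3 each), with a log2 fold change of -4.72 (SE 0.26), the 4th lowest of all genes tested. The control level was 26.8 times the other (exact 95% counting interval 17.6 to 42.6). The ratio of LINC01152 to ENSG00000267893 counts was 0.68, 0.87 and 0.62 in control libraries 1 to 3 and 0.73, 2.0 and 0.63 in SOX9 sgRNA libraries. The SOX9 sgRNA ratios come from 8 against 11, 8 against 4 and 5 against 8 counts. These are too few to tell whether the 2 rows kept their proportion.

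LINC02097 (ENSG00000226101, 70068474 to 70089622, plus strand, 6 exons, 2063 bp) lies wholly within the span of SOX9-AS1 and starts 48.7 kb before SOX9. It held 30, 20 and 33 counts in controls and 84, 41 and 73 with the SOX9 sgRNA. The groups did not overlap, here with the SOX9 sgRNA libraries higher, and SOX9 sgRNA library 2 lay closest to the controls. The level went from 37.6 ± 11.2 to 75.2 ± 24.2 CPM (SD, n = 3 each), with a log2 fold change of 1.01 (SE 0.28) and a ratio of 2.03 (exact 95% counting interval 1.56 to 2.65). It was not past the threshold without control library 2 (log2 fold change 0.77) or without SOX9 sgRNA library 1 (0.74). LINC02097 made up 9.15%, 5.99% and 10.2% of the counts of the 3 upstream plus-strand rows in the controls. In the SOX9 sgRNA libraries it made up 81.6%, 77.4% and 84.9%.

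ENSG00000263680 (70422080 to 70424993, plus strand, 2 exons, 833 bp) is annotated as a long intergenic noncoding RNA gene. It nevertheless lies inside the span of LINC00511, on the other strand. ENSG00000263680 held 100, 132 and 112 control counts and 60, 42 and 72 with the SOX9 sgRNA. All SOX9 sgRNA libraries were lower than all controls, by less than for LINC01152 and ENSG00000267893. Its level went from 154 ± 18.1 to 65.6 ± 9.64 CPM (SD, n = 3 each), with a log2 fold change of -1.22 (SE 0.19) and a control level 2.33 times the other (exact 95% counting interval 1.93 to 2.81).

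The 2 minus-strand genes had few counts for their length, and both failed the filter on low counts. SOX9-AS1 (ENSG00000234899, 70033455 to 70217977, minus strand, 28 merged exons, 8450 bp) held 7, 8 and 7 counts in controls and 9, 11 and 10 with the SOX9 sgRNA. In CPM the groups overlapped, at 9.86 ± 0.44 and 11.6 ± 2.38 (SD, n = 3 each). Over 322 bp it shares exon sequence on the same strand with ENSG00000254148 (4, 3 and 6 counts against 0, 0 and 3), and a fragment from there counted for both. LINC00511 (ENSG00000227036, 70319264 to 70636611, minus strand, 25 merged exons, 8615 bp) held 6, 21 and 6 counts in controls and 8, 7 and 10 with the SOX9 sgRNA. Only control library 2 stood out, with 26.7 CPM against 8.01 and 8.63 in the other controls, and the groups overlapped, at 14.4 ± 10.6 and 9.49 ± 0.34 CPM (SD, n = 3 each). A fit without the filter gave log2 fold changes of 0.19 (SE 0.62) for SOX9-AS1 and -0.64 (SE 0.58) for LINC00511, so that changes of 2-fold were not detectable at this depth.

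**Figure D2:**
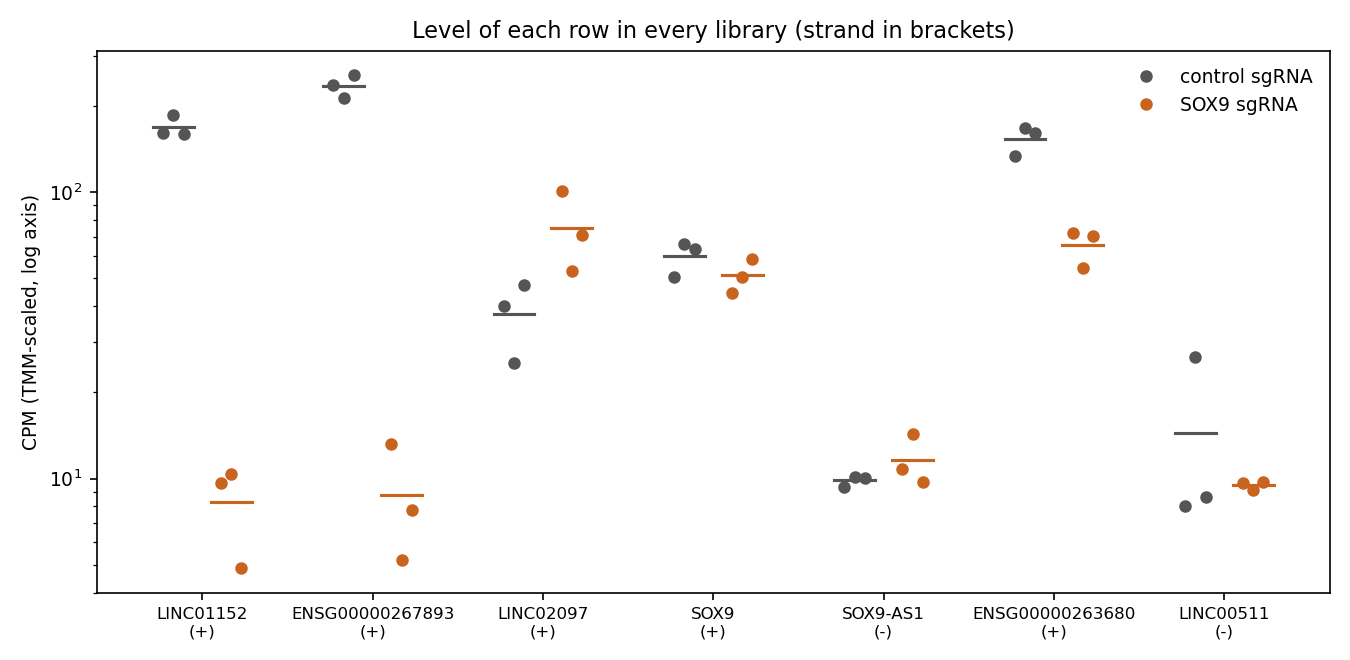
Level of each gene in every library, in TMM-scaled CPM on a log axis, with points for libraries, a bar for the mean of 3, and the strand in brackets. LINC01152 and ENSG00000267893 fall from means of 169 and 235 CPM to 8.30 and 8.74 CPM, LINC02097 lies higher with the SOX9 sgRNA, and SOX9, SOX9-AS1 and LINC00511 overlap.

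Of the 7 genes 5 passed the filter, and of these 3 were past an adjusted p of 0.05 on the lower side and 1 on the higher side. Among all 7959 genes tested, 6.02% were lower and 2.99% higher. The 2 groups did not overlap for 4 of the 5, against 24.5% of all genes tested. The genes were selected on this contrast, so nothing is read from these shares. Over all genes tested, the fold changes had a median of 0.01 on the log2 scale, and 0.19 when libraries were scaled by their totals alone. The genes just outside the 500 kb window held 0 to 2 counts per library: RPL32P33, 500.8 kb away, ENSG00000263893, 516.3 kb away, and ENSG00000225818, 523.7 kb away. Inside it, 4 further rows were not among those selected. MYL6P5, a pseudogene, and ROCR, a long noncoding RNA gene known from cartilage differentiation, held 0 counts in every library, which allows up to 0.617 CPM over the 6 libraries together. The other two were ENSG00000254148 and LINC02003, which held 6, 2 and 4 counts against 1, 0 and 3 and lies inside the span of LINC00511.

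**Figure D3:**
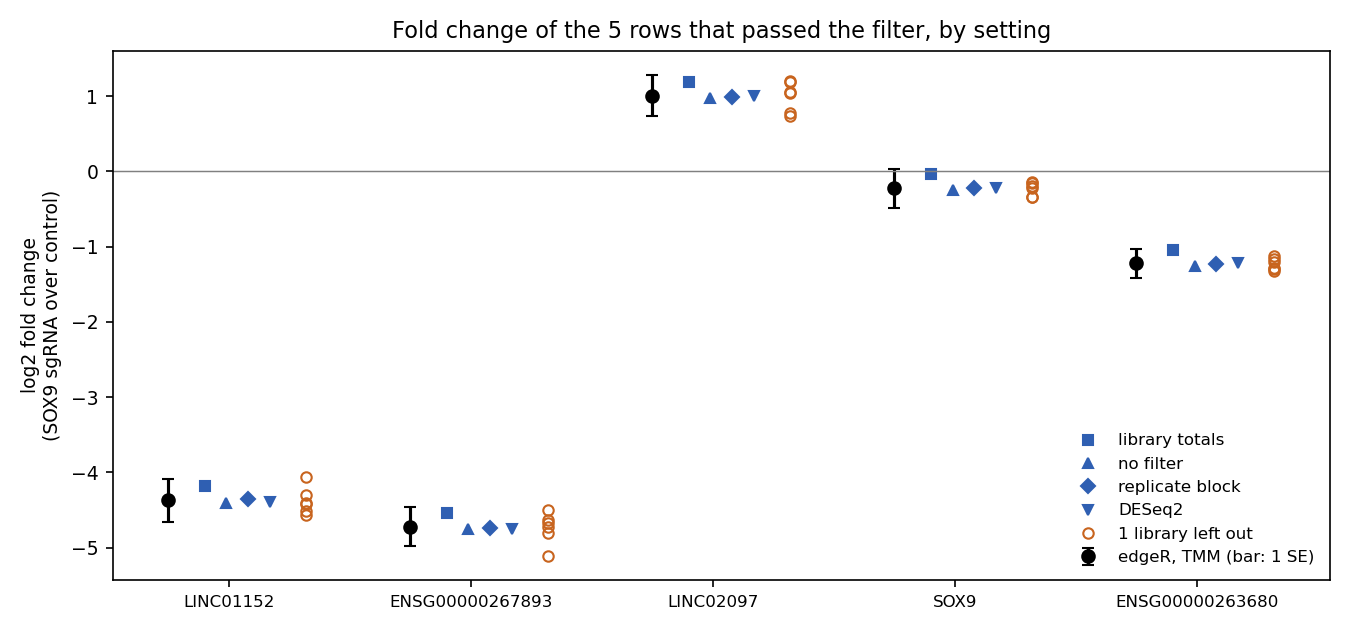
Log2 fold change (SOX9 sgRNA over control) of the 5 genes that passed the filter, with the edgeR value and 1 SE in black, other settings in blue and each fit without 1 library in orange. LINC01152 stays between -4.57 and -4.06 and ENSG00000267893 between -5.11 and -4.50, while SOX9 stays between -0.34 and -0.04.

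Per kb of exon, the order of levels changed between the groups. In controls the mean was 332 CPM per kb for ENSG00000267893, 185 for ENSG00000263680, 138 for LINC01152, 18.2 for LINC02097, 15.2 for SOX9, 1.68 for LINC00511 and 1.17 for SOX9-AS1. The libraries of LINC02097 and SOX9 overlapped in this order, as did those of LINC00511 and SOX9-AS1. With the SOX9 sgRNA the mean was 78.8 CPM per kb for ENSG00000263680, 36.4 for LINC02097, 13.0 for SOX9, 12.3 for ENSG00000267893, 6.80 for LINC01152, 1.38 for SOX9-AS1 and 1.10 for LINC00511. There SOX9 overlapped with ENSG00000267893, and ENSG00000267893 with LINC01152. In the controls 3 noncoding rows were thus read more densely than the row of SOX9, the protein-coding gene of the locus. Which strand these rows counted was not tested, so the order is one of rows and not of transcript levels.

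Counts at the locus lay mostly on plus-strand rows. Within the window, plus-strand rows held 472, 520 and 482 counts in controls and minus-strand rows 17, 32 and 19. With the SOX9 sgRNA plus-strand rows held 201, 134 and 221 counts and minus-strand rows 17, 18 and 23. The plus-strand share was thus 94.2% to 96.5% in the controls and 88.2% to 92.2% with the SOX9 sgRNA. The 4 noncoding plus-strand genes together went from 571, 592 and 624 CPM to 196, 123 and 154 CPM.

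For each pair with shared exon sequence, both strands are given. ENSG00000267893 held 523 control counts against 22 on SOX9-AS1, or 96.0% on the plus strand (exact 95% interval 94.0% to 97.5%, counting error only). With the SOX9 sgRNA the same pair held 23 against 30, or 43.4% (29.8% to 57.7%). LINC02097 held 83 against 22 on SOX9-AS1 in controls and 198 against 30 with the SOX9 sgRNA, 79.0% and 86.8% on the plus strand. ENSG00000263680 held 344 against 33 on LINC00511 in controls and 174 against 25 with the SOX9 sgRNA, 91.2% and 87.4%. The minus-strand members of these pairs thus held 6 to 21 counts per library in controls and 7 to 11 with the SOX9 sgRNA. Their plus-strand partners moved up or down.

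**Figure D4:**
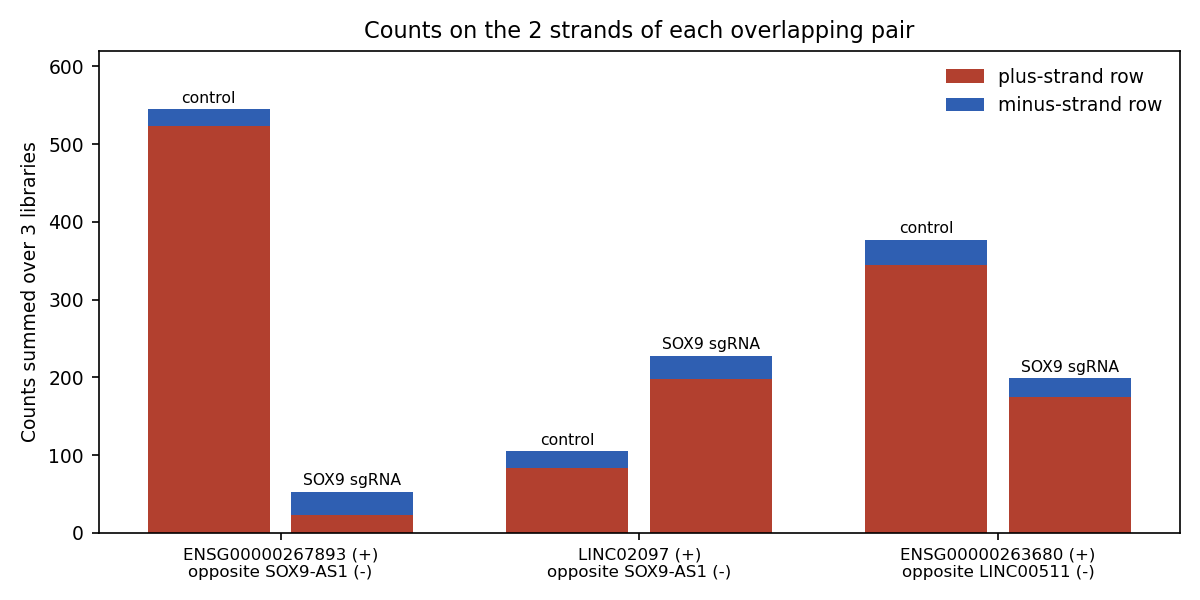
Counts summed over 3 libraries on the plus-strand row and the minus-strand row of each pair with overlapping exons, in control and SOX9 sgRNA libraries. The plus-strand part goes from 523 to 23, from 83 to 198 and from 344 to 174, while the minus-strand part stays between 22 and 33.

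Which strand these counts came from bears on every gene named here. In 929 pairs elsewhere in the genome, a protein-coding gene overlapped a single noncoding gene on the other strand and the pair held at least 100 counts. The noncoding row held more counts in 730 of them (78.6%), with a median of 87.0% of the pair's counts. GAPDH, a glycolytic enzyme gene that all cells use, held 66 to 126 counts per library against 7249 to 11002 on ENSG00000269968, on its other strand. Whether the plus-strand rows at the SOX9 locus counted transcripts of the plus strand or of the minus strand was not tested, and the names LINC01152, ENSG00000267893, LINC02097 and ENSG00000263680 stand for rows of the tables. The same holds for the SOX9 row.

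Promoter windows, from 250 bases before to 50 after the annotated start, were found in RefSeq (GRCh38.p14) for 4 of the 7 genes: LINC01152, LINC02097, SOX9-AS1 and LINC00511. The windows of LINC01152 and LINC02097 are printed because these rows moved in opposite directions. LINC01152 is at chr17:72030404-72030703 and LINC02097 at chr17:72072083-72072382, both on the plus strand, with the transcribed bases in capitals.
LINC01152: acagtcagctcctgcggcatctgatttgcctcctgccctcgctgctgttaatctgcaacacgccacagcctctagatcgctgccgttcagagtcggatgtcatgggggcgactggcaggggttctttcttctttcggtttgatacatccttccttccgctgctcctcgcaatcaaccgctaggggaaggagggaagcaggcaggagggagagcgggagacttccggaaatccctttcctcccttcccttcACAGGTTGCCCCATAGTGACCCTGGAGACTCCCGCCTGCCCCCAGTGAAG
LINC02097: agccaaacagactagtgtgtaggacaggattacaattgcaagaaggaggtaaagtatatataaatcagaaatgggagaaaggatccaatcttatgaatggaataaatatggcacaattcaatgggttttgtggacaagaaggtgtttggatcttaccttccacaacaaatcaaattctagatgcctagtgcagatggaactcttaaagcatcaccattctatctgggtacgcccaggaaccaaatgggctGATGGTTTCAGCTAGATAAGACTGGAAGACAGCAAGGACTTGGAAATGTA

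G and C made up 58.7% of the LINC01152 window and 40.0% of the LINC02097 window, against a median of 58.7% over 35116 promoters. The LINC00511 window reached 78.0% and that of SOX9-AS1 59.3%. The SOX core motifs ACAAAG and ACAATG, which share their first 4 letters and were searched on both strands, occurred in none (0) of the 4 windows. At least 1 of them occurred in 24.5% of all promoters, ACAAAG in 16.1% and ACAATG in 10.8%. These letters are not in these windows, and nothing more is read from that.

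Rows of other SOX genes, which share the HMG box with SOX9, were mostly at low counts. Of 19 listed, 8 held no count in any library and 5 passed the filter, of which 0 were higher and 0 lower by edgeR and by DESeq2. At an unadjusted p under 0.05 in edgeR, 2 were higher and 1 lower, against 9.17% higher and 11.3% lower of all genes tested. The median log2 fold change was 0.77, against 0.01 over all genes. SOX4, a factor of progenitor and tumour cells, held 78, 62 and 38 counts against 36, 45 and 56, a difference of -0.61 on the log2 scale (SE 0.25, adjusted p = 0.13 in edgeR). SOX6, a partner of SOX9 in cartilage, held 74, 85 and 56 against 89, 47 and 120 (0.00, SE 0.21, edgeR adjusted p = 1.0). The values were 0.77 (SE 0.38) for SOX11 and 0.89 (SE 0.38) for SOX15. The strand that these SOX rows counted was not tested, so their counts are those of rows and not of transcripts.

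Of 23 genes known as SOX9 targets in cartilage, testis or epithelia, 5 passed the filter, with 0 higher and 1 lower, against 2.99% higher and 6.02% lower of all genes tested, and a median log2 fold change of 0.07. The cartilage collagen gene COL2A1 held 0 to 4 counts per library. S100A1, a calcium-binding protein gene that SOX9 activates in cartilage, fell from 180, 194 and 158 counts to 64, 56 and 42, with a log2 fold change of -1.93 (SE 0.18). On its other strand, log2 fold changes were -2.25 (SE 0.082) for ENSG00000272030, opposite over 318 bp, and -3.09 (SE 0.090) for S100A13. A further opposite row, ENSG00000271853, was not past the threshold (-0.065, SE 0.126, adjusted p = 0.84 in edgeR). ENSG00000272030 held 331 to 1682 counts per library, more than S100A1. From which strand the counts of S100A1 and of the other listed targets came was not tested. SOX6 (above) and the collagen genes COL9A3 (0.24, SE 0.37) and COL10A1 (0.50, SE 0.36) were not past the threshold. By DESeq2, and at an unadjusted p under 0.05 in edgeR, 1 was lower and 0 were higher as well.

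Regulators of SOX9 expression or of its protein, such as Notch and Hippo pathway genes, gave no call on their own rows. Of 18 listed, 9 passed the filter, with 0 higher and 0 lower by edgeR, also at an unadjusted p under 0.05, and by DESeq2, and the median log2 fold change was -0.11. The 4 with the highest control level were the Notch receptor genes NOTCH2 (0.14, SE 0.24) and NOTCH1 (0.01, SE 0.29), the NF-kappaB subunit gene RELA (-0.05, SE 0.27) and the hypoxia factor gene HIF1A (-0.66, SE 0.34). HIF1A-AS1, opposite HIF1A over 117 bp, held 156 to 267 counts per library and fell by 0.63 on the log2 scale (SE 0.13, adjusted p = 0.00015 in edgeR). Among the 6 listed protein-coding genes that flank the desert, 1 passed the filter. It was COG1, a Golgi trafficking gene opposite FAM104A, a difference of -0.17 on the log2 scale (SE 0.098, adjusted p = 0.34 in edgeR). FAM104A, opposite over 1155 bp, held 180 to 240 counts per library, with a log2 fold change of -0.40 (SE 0.12, adjusted p = 0.028 in edgeR). Which strand the counts of COG1, the other listed neighbours and the listed regulators came from was not tested. KCNJ2, a potassium channel gene on the upstream side, held 0 counts in every library, and SLC39A11, a zinc transporter gene beyond LINC00511, held 2 to 7.

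By Pearson's r of log2 CPM over the 6 libraries, among 4336 genes averaging 5 or more in log2 CPM, the rows most like SOX9 were RRM1-AS1 (0.995), CNOT2 (0.990) and RNASEK (0.987). Those most like ENSG00000267893 were CDH3-AS1 (0.998), ENSG00000254873 (0.997) and MUC5B-AS1 (0.995). These points share 6 libraries in 2 groups. MUC5B-AS1, on chromosome 11, held 123, 123 and 121 control counts against 5, 3 and 7, a log2 fold change of -4.82 (SE 0.30), close to that of ENSG00000267893, whereas CDH3-AS1 (-0.52, SE 0.11) and ENSG00000254873 (-0.38, SE 0.068) moved in parallel but by far less.

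Library totals ran from 776125 to 1018854 counts. Control libraries detected 18326 to 18818 genes and SOX9 sgRNA libraries 20207 to 21082, and the part of this difference in the results was not tested. Epithelial markers were present in both groups, with sums of 798 to 957 counts per library in controls and 813 to 1083 with the SOX9 sgRNA over 8 keratin and adhesion genes. Of these 7 were tested, with 0 higher and 2 lower, KRT7 and KRT19, by edgeR and by DESeq2, against 2.99% and 6.02% of all genes tested. The other log2 fold changes were 0.41 (SE 0.18) for KRT5, 0.11 (SE 0.098) for KRT8, 0.33 (SE 0.30) for KRT18, -0.05 (SE 0.32) for CDH1 and -0.68 (SE 0.27) for EPCAM. KRT7-AS, opposite KRT7 over 282 bp, held 728 to 1368 counts per library (-0.94, SE 0.073, edgeR adjusted p = 3.7e-17). ENSG00000260798, opposite CDH1 over 347 bp, held 885 to 1405 (-0.23, SE 0.074, edgeR adjusted p = 0.039). KRT8 and KRT18 lie opposite each other. Which strand the counts of these keratin and CDH1 rows came from was not tested. KRT14, which failed the filter, held 14, 9 and 16 counts against 1, 0 and 6 (-2.73, SE 0.74, in a fit without the filter). Of the leukocyte markers, CD68 held 18, 11 and 21 counts in controls and 31, 32 and 36 with the SOX9 sgRNA, CD3E was at 0 in all libraries, and PTPRC was at 0 in all but control library 2. Fibroblast markers summed to 2 to 4 and 4 to 8 counts, and CDH5 and VWF of endothelium were at 0. The strand counted by these leukocyte, fibroblast and endothelial rows was not tested, so low counts there do not show a transcript to be absent. The part of the marker genes in the results was not tested.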

How the data were processed

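Total RNA of 3 control sgRNA and 3 SOX9 sgRNA libraries was measured. The deposited values are raw counts per gene, 1 table per library. The submitters' processing notes name STAR 2.7.10a and Subread 1.6.2. Exon fragments were counted by featureCounts 1.6.2 at strand setting 1 against Ensembl GRCh37 release 75, per the file headers, and a fragment could count for every gene it overlapped.

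The test was that of edgeR 4.0.16 in R 4.3.3 (filterByExpr defaults, TMM, robust quasi-likelihood test, group as the only term, Benjamini-Hochberg over 7959 genes, threshold 0.05, prior count 0.125). SEs were derived from the test statistic. Exon overlaps were found with bedtools 2.31.1. Names and biotypes came from GENCODE release 29 and a symbol table, with 51452 of 57209 identifiers matched to a symbol. Counting intervals are exact at 95% and cover counting error only.

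The genes, lists and motifs were chosen with earlier results of these data known. All 7 genes at the locus are named. From each list, members past the threshold and those with the highest level are named. COL2A1, KCNJ2, SLC39A11 and the marker genes were named after their values were seen. One marker result is not reported here.

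On simulated counts, the fit found 14%, 50%, 82% and 78% of 50 genes changed 1.5-, 2-, 3- and 4-fold, and called 5 of 7701 unchanged genes. Alternatives were library totals, no filter, a replicate block, DESeq2 1.42.0 and leaving out each library. Between replicates the chi-square per degree of freedom was 1.97 to 2.44, so none was a repeat of another within sampling noise.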

Additional observations from a re-analysis of the deposited data

How the results depend on the processing

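The number of genes past the threshold was 717, with 238 higher and 479 lower. DESeq2 called 474, of which 128 were higher. When libraries were scaled by their totals alone, 625 were higher and 249 lower, and without the filter 151 were higher. SOX9 did not pass the threshold under any of 10 alternatives, with log2 fold changes from -0.34 to -0.04. LINC01152, ENSG00000267893 and ENSG00000263680 kept direction and call in all 10. LINC02097 kept its direction in all 10 and its call in 8, with 0.74 to 1.19, and the cause of the 2 losses was not tested. The noncoding genes were selected on this contrast, so their calls describe the fits and carry no test. With the replicate number as a block (replicate block), SOX9 was at -0.23 and 574 genes were called, and no call of a locus gene changed. Deviations of same-numbered libraries from their group means were hardly correlated (r of 0.0059, 0.017 and -0.030 over 4337 genes), so the numbers were not taken as pairs. Depth limits SOX9-AS1 and LINC00511, at 6 to 21 counts per library.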
